A study of Mus musculus with 12 samples.

Results

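*Tmigd1*, *Pdzk1*, *Dnase1*, *Prss30*, *Stk10* and *Susd2* are 6 of the 34245 rows of a table of raw read counts from sorted cells of the mouse small intestine. They were chosen by their counts in these libraries: they are abundant in enterocytes, and they were lower in intestinal stem cells (ISC) of aged mice than of young mice. Their levels in ISC by age and their excess in adult enterocytes (AE) over ISC are therefore given as a description with no test. The age effect in AE, which played no part in the choice, was tested.

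The table holds 12 libraries of poly(A)+ RNA in 4 groups of 3: young ISC, aged ISC, young AE and aged AE. All mice were males of C57BL/6 background that carried the Lgr5-EGFP-IRES-CreERT2 knock-in, which places a green fluorescent protein (GFP) and an inducible Cre under the *Lgr5* gene, and no group lacked this allele. Young mice were about 8 months old and aged mice about 27 months. ISC were live GFP-high cells from crypts, sorted without antibody staining. AE were live Epcam-high villus cells without the endothelial marker CD31 or the leukocyte marker CD45, a sort that keeps all epithelial cells of the villus and not enterocytes alone. Libraries are called here by their codes, Y1, Y2 and Y3 for young and O1, O3 and O5 for aged. The authors list the ages of 3 young and 3 aged mice for RNA sequencing. The sources do not state whether a code stands for a mouse, so that the p-values below measure the spread between these libraries.

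Library totals ran from 11893817 to 110794420 counts, the young AE library of code Y3 being far deeper than the rest. A count of 3, taken as the limit of detection, corresponds to between 0.0360 and 0.327 CPM, the unit of level used here, which is a gene's count relative to the total of its library after scaling by a trimmed mean (TMM). Stem cell markers were lower in AE than in ISC in 14 of 14 genes at either age, and enterocyte markers were higher in AE in 24 of 24, so that the sorted populations carried the markers of their names. *Lgr5* itself averaged 98.7 ± 31.5 CPM (SD, n = 3) in young ISC and 119 ± 24.6 CPM (SD, n = 3) in aged ISC. Goblet cell markers were called higher in AE in 9 of 10 genes at either age, the exception being *Spink4*, which was not called in young mice and was called lower in aged AE.

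Enterocytes, the absorptive cells that line the villus, descend from *Lgr5*+ stem cells at the crypt base. As daughter cells leave the crypt they stop dividing and switch on the genes of the brush border, the dense carpet of microvilli through which nutrients are taken up. *Pdzk1* encodes a scaffold of PDZ domains that holds transporters and receptors at the apical membrane, *Tmigd1* an immunoglobulin-domain adhesion protein of intestinal and renal epithelia, and *Stk10* a kinase of the Ste20 group that phosphorylates ezrin, radixin and moesin, the proteins that tie membrane to actin. *Dnase1* encodes the secreted nuclease DNase I, *Prss30* a trypsin-like serine protease of the intestine, and *Susd2* a membrane protein with a sushi domain.

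The genes lie on 5 chromosomes, and all 6 are annotated as protein coding. Since all 6 were lower in aged ISC, their promoters are shown, each from 250 bases before to 50 bases after the transcript start in RefSeq (build GRCm38.p6). RefSeq promoters were given for 5 of the 6 genes, in 8 windows, of which the pair of *Dnase1* overlap. Capitals mark the letters of 4 short motifs, searched on both strands: CAAAGT as in sites of HNF4 factors, TTTAT as in sites of CDX factors, AGATAA as in sites of GATA factors and GTTAAT as in sites of HNF1 factors. *Pdzk1*, *Tmigd1* and *Dnase1* are shown because they hold such letters, and *Stk10* because it holds none. All 4 windows are on the plus strand, at chr3:96829815-96830114, chr11:76901909-76902208, chr16:4036786-4037085 and chr11:32533016-32533315.
Pdzk1: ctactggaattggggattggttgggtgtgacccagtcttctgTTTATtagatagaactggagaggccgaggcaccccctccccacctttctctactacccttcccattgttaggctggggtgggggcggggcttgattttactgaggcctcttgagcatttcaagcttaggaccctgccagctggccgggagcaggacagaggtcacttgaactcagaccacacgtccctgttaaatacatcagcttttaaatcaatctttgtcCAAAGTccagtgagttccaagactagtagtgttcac
Tmigd1: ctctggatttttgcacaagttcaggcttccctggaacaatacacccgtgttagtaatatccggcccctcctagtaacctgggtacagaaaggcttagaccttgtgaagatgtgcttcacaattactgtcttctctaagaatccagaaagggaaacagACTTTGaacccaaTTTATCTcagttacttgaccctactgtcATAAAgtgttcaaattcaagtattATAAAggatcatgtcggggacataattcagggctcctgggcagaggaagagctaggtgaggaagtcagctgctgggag
Dnase1: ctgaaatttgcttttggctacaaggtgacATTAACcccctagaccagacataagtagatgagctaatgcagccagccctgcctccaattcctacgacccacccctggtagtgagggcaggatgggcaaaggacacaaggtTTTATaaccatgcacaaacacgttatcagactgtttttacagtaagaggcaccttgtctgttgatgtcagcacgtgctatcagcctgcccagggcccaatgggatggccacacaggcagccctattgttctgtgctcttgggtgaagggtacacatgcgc
Stk10: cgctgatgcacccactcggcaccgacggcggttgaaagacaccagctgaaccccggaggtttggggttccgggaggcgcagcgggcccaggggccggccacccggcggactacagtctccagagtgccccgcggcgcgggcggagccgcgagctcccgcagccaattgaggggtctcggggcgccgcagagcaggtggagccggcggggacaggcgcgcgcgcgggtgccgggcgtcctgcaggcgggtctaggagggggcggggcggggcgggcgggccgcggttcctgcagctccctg

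In *Pdzk1* the HNF4-type letters lay 15 bases after the start and the CDX-type letters began at -208. The *Tmigd1* window shown held 5 matches, the HNF4-type letters at -93, CDX-type letters at -80, -52 and -28, and GATA-type letters at -79 that overlap the first of these. Its other window, not shown, held CDX-type letters at -239. *Dnase1* held CDX-type letters at -110 and HNF1-type letters at -221. The CDX-type letters occurred in 3 of the 5 genes and in 5 of their 8 windows, the overlapping *Dnase1* windows sharing 1 match, against 40.0% of all 32851 promoters of this length, and the HNF4-type letters in 2 of 8, against 14.4%. GATA-type and HNF1-type letters occurred in 1 window each, against 11.2% and 7.10% of all promoters. These matches describe the letters of the windows only. The promoters also differed in base composition. That of *Stk10* was 76.7% G and C with 39 CpG pairs, above 97.3% of all promoters in G and C, whereas the window of *Tmigd1* shown was 44.7% G and C with 3 CpG pairs. The *Prss30* window (chr17:23975181-23975480, minus strand) held none of the 4 motifs.

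*Pdzk1*, the apical scaffold (ENSMUSG00000038298.14, chr3:96829284-96870926, plus strand, 13 blocks of exons), had the highest mean CPM of the 6 in ISC. Per kilobase of exon it did not differ from *Dnase1* beyond the spread. The annotated exons of *Dnase1* merge into 1 block, so that its value per kilobase is a low estimate. Young ISC had 8.55 ± 5.05 CPM per kilobase of *Pdzk1* and 7.80 ± 4.11 of *Dnase1*, and aged ISC 1.62 ± 0.709 and 1.77 ± 1.03 (SD, n = 3). Young ISC had 25.8, 15.2 and 50.2 CPM in libraries Y1, Y2 and Y3. Aged ISC had 2.95, 7.82 and 6.49 CPM in O1, O3 and O5. Every aged library lay below every young one, the nearest being O3 and Y2, and the fitted log2 fold change of aged over young was -2.41 (SE 0.49), a 5.31-fold lower level. In AE the gene stood at 579.8, 545 and 921 CPM in young libraries and at 794, 848 and 916 CPM in aged ones, so that the ages overlapped. At its 3′ side 1333 exonic bases are shared with *Gpr89* on the opposite strand, which averaged 64.0 CPM in young ISC and 57.6 CPM in aged ISC. How reads were assigned by strand in the counting is not given in the sources used here, so that the part of *Gpr89* in these *Pdzk1* counts was not tested.

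*Tmigd1*, the adhesion protein (ENSMUSG00000020839.16, chr11:76902159-76916587, plus strand, 7 blocks of exons), had the largest difference of the 6. It had 6.12, 5.79 and 10.9 CPM in the young ISC libraries Y1, Y2 and Y3. The aged ISC libraries O1, O3 and O5 had 0.561, 0.647 and 2.00 CPM, from 20, 12 and 45 reads. All aged libraries were lower than all young ones, with O5 the nearest, and the log2 fold change was -2.83 (SE 0.52), or 7.13-fold lower. Young AE held 107, 116 and 127 CPM and aged AE 113, 191 and 143 CPM. The aged AE library O1 lay among the young ones and the other two above them.

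*Stk10*, the ezrin, radixin and moesin kinase (ENSMUSG00000020272.8, chr11:32533305-32624587, plus strand, 19 blocks of exons), was the least abundant. Reads numbered 34, 32 and 69 in young ISC (2.17, 1.82 and 3.87 CPM) and 12, 10 and 15 in aged ISC (0.337, 0.539 and 0.667 CPM). The lowest of these counts, 10 reads in O3, has an exact Poisson 95% interval of 4.80 to 18.4 reads, which covers counting error only. All 6 ISC libraries were above the limit of detection of 3 counts, the ages did not overlap, and the log2 fold change was -2.36 (SE 0.46), or 5.12-fold lower. In AE it had 40.6, 69.1 and 82.1 CPM in young libraries and 46.0, 91.2 and 72.5 CPM in aged ones. These ranges overlapped almost wholly.

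*Dnase1*, the secreted nuclease (ENSMUSG00000005980.15, chr16:4036942-4040024, plus strand), had 21.9, 12.6 and 37.7 CPM in young ISC. The aged ISC libraries O1, O3 and O5 had 2.50, 8.79 and 5.07 CPM. O3 was again the nearest to the young range, and the log2 fold change was -2.15 (SE 0.51), or 4.44-fold lower. Young AE had 748, 339 and 645 CPM and aged AE 628, 429 and 349 CPM, with wide overlap. It was the only member whose AE mean was lower in aged mice. The antisense gene *Gm15879*, which shares 504 exonic bases with *Dnase1*, averaged 2.17 CPM in young ISC and 2.75 CPM in aged ISC, and *Trap1*, which shares 54 bases, averaged 249 and 243 CPM.

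*Prss30*, the serine protease (ENSMUSG00000024124.10, chr17:23972126-23975230, minus strand), had the smallest difference. Its young ISC levels were 9.25, 6.18 and 9.65 CPM. Its aged ISC levels were 1.37, 3.78 and 2.58 CPM in O1, O3 and O5. The ages did not overlap, and the log2 fold change was -1.71 (SE 0.38), or 3.26-fold lower. Levels in AE were 202, 160.0 and 141 CPM in young libraries and 223, 145 and 168 CPM in aged ones, and the ranges overlapped.

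*Susd2*, the sushi-domain membrane protein (ENSMUSG00000006342.15, chr10:75636706-75644008, minus strand, 13 blocks of exons), showed the largest excess in AE. Young ISC libraries had 6.19, 3.35 and 12.5 CPM. The aged ISC libraries O1, O3 and O5 had 0.561, 1.78 and 1.87 CPM. No aged library reached the lowest young library, Y2, and the log2 fold change was -2.41 (SE 0.58), or 5.31-fold lower. In AE it stood at 221, 204 and 296 CPM in young libraries and 255, 374 and 288 CPM in aged ones. Here the aged libraries O1 and O5 fell within the young range and O3 above it.

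**Figure D1:**
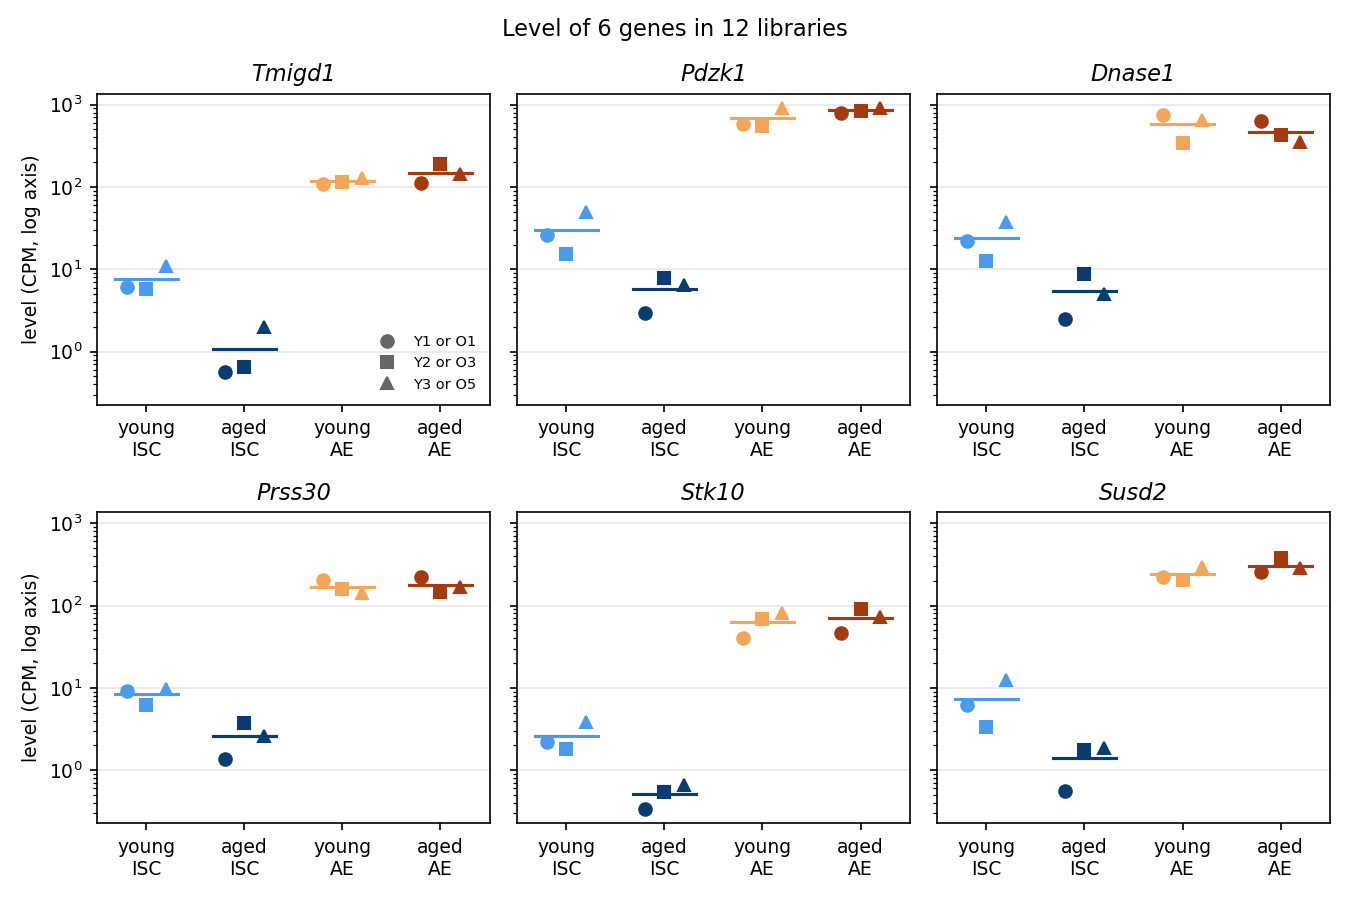
Level of the 6 genes in each of the 12 libraries in CPM on a log axis, by group, with symbols for the library codes and horizontal bars for the group means of 3 libraries. In every panel the 3 aged ISC points lie below the 3 young ISC points, whereas the AE points of both ages overlap.

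All 6 genes thus had aged ISC libraries wholly below the young ones. This was so for 4.41% of the 15552 genes tested in ISC, and nothing is read from the members' count, since the difference chose them. Their median log2 fold change in ISC was -2.38 and ranged from -2.83 to -1.71, beside a median of 0.01 over all genes tested. In bulk RNA, fewer cells that carry a transcript and less of it per cell cannot be told apart. Over the whole table, edgeR's quasi-likelihood test called 0% of genes for age in ISC at a false discovery rate (FDR) of 0.05, with 0 genes called, 695 at an unadjusted p below 0.05, and 59 called by DESeq2.

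The order of the libraries was shared. Library Y3 was the highest of the 6 ISC libraries for 6 of the 6 genes and O1 the lowest for 6 of 6. The same libraries were the highest for 20 and the lowest for 21 of 24 enterocyte markers. Without Y3 the median log2 fold change of the 6 genes was -1.80. With both Y3 and O1 left out, a choice made after seeing the data, it was -1.44.

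The order of the 4 groups was the same for 5 of the genes: aged AE, young AE, young ISC and aged ISC from high to low, with the ages of AE exchanged for *Dnase1*. The AE groups did not separate for any of the genes. Per kilobase of exon, young AE held 192 ± 58.5 CPM of *Pdzk1*, 187 ± 68.9 of *Dnase1*, 78.1 ± 6.73 of *Tmigd1*, 73.2 ± 13.6 of *Prss30*, 70.1 ± 14.2 of *Susd2* and 12.3 ± 4.09 of *Stk10* (SD, n = 3). *Pdzk1* and *Dnase1* did not differ beyond their spread, nor did *Tmigd1*, *Prss30* and *Susd2*, while *Stk10* lay below them all. Young ISC kept this order, from 8.55 ± 5.05 CPM per kilobase for *Pdzk1* to 0.505 ± 0.212 for *Stk10* (SD, n = 3). Exons of *Dnase1* merge into 1 block in the annotation because transcripts with retained introns are included, so that its value per kilobase is a low estimate.

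In AE, the question is whether the genes that were lower in aged ISC were also lower in the cells in which they are abundant. None of the 6 genes was called there. *Tmigd1* had a log2 fold change of 0.37 (SE 0.21, 95% interval -0.10 to 0.84, adjusted p = 0.833 by edgeR's quasi-likelihood test). For *Susd2* it was 0.36 (SE 0.21, -0.12 to 0.84, adjusted p = 0.833 by the same edgeR test) and for *Pdzk1* 0.34 (SE 0.23, -0.18 to 0.86, adjusted p = 0.833). These intervals include 0 and reach a rise of less than 1 on the log2 scale. *Stk10* gave 0.14 (SE 0.31, -0.56 to 0.84, adjusted p = 0.946 by edgeR), *Prss30* 0.11 (SE 0.20, -0.35 to 0.58, adjusted p = 0.936) and *Dnase1* -0.28 (SE 0.31, -0.99 to 0.43, adjusted p = 0.888).

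The fitted difference was towards aged AE in 5 of the 6 genes and towards young AE in *Dnase1*, with a median of 0.24 beside -0.04 over all genes tested. None of the 6 had all aged AE libraries above all young ones, which was so for 3.95% of the 16265 genes tested. The same test called 0% of those genes in AE, with 0 genes called, 809 at an unadjusted p below 0.05, and 17 called by DESeq2. Without the deep Y3 library the median of the 6 genes was 0.41 and 1 gene of the table was called, none of the 6. When every AE library was scaled to its enterocyte markers the median was -0.13, so that its sign depended on the scaling. The age difference in ISC and that in AE were not tested against each other, since the choice of genes used the first.

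**Figure D2:**
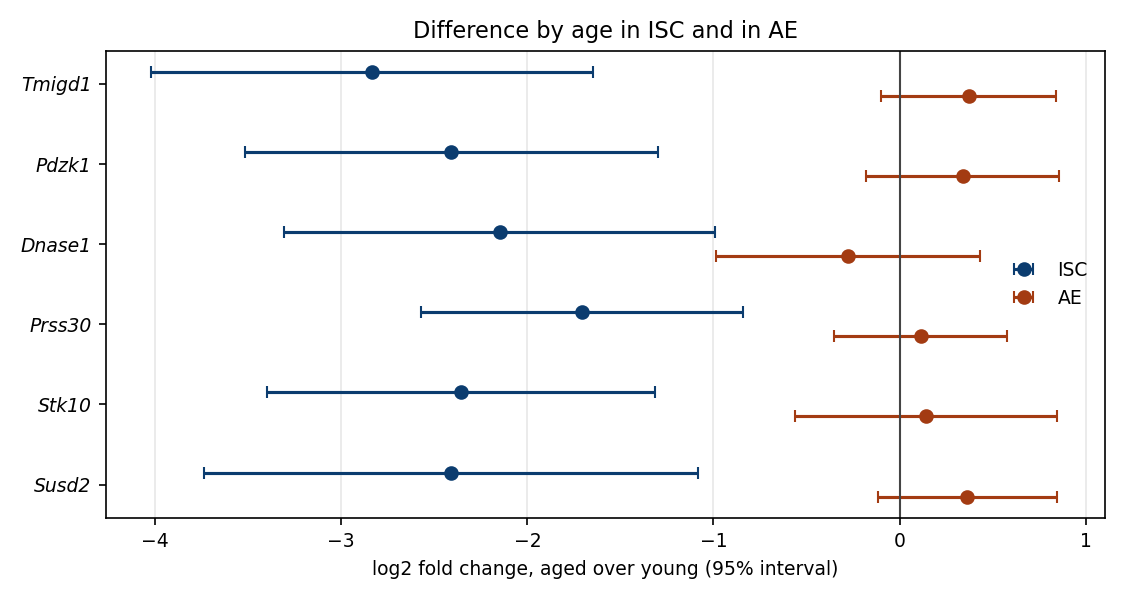
Log2 fold change of aged over young for each of the 6 genes in ISC (blue) and AE (brown), with 95% intervals from the edgeR fit of 3 against 3 libraries. The ISC values, on which the genes were chosen, lie between -2.83 and -1.71, and the AE intervals all include 0.

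AE exceeded ISC for all 6 genes at either age, and this excess too was part of the choice. In young mice the excess on the log2 scale was 3.93 for *Tmigd1* (SE 0.28) and 4.32 for *Prss30* (SE 0.25) at the low end and 5.03 for *Susd2* (SE 0.48) at the high end, with a median of 4.53. Of all genes tested, 27.7% were called higher in young AE. In aged mice the values ran from 6.08 for *Prss30* (SE 0.37) to 7.76 for *Susd2* (SE 0.44), with a median of 7.07, and 30% of genes tested were called higher in AE. *Tmigd1* went from a 15.3-fold to a 135-fold excess and *Susd2* from 32.7-fold to 216-fold. These comparisons use the same ISC libraries as the comparison by age.

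Expressed as a percentage of the AE mean at the same age, the 6 genes had medians of 3.78%, 2.53% and 6.29% in the young ISC libraries Y1, Y2 and Y3. In the aged libraries O1, O3 and O5 the medians were 0.429%, 0.845% and 1.02%. All the aged medians were thus below the lowest young one, which the choice of the genes by their fall in ISC brings about. The 24 enterocyte markers had medians of 4.94%, 5.28% and 12.5% in the young libraries and of 1.83%, 7.19% and 2.65% in the aged ones, which overlapped. Of the 24 markers, 11, 13 and 16 stood at a higher percentage of their AE level than any of the 6 genes in Y1, Y2 and Y3, and 17, 20 and 18 in O1, O3 and O5. Setting the 6 genes beside the markers is a description only, since the markers were not chosen for a fall in ISC.

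**Figure D3:**
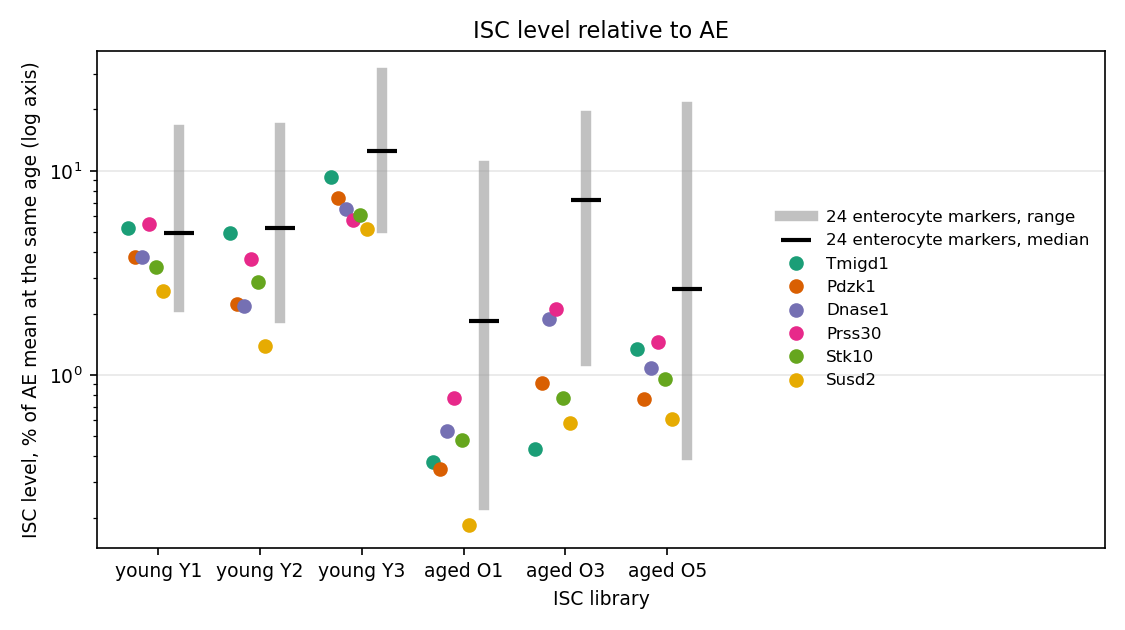
Level in each ISC library as a percentage of the AE mean at the same age, on a log axis, with a point for each of the 6 genes and, beside them, the range (grey) and median (black bar) of 24 enterocyte markers. The 6 genes lie between 1.39% and 9.37% in young libraries and between 0.184% and 2.12% in aged ones.

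The 24 other enterocyte markers overlapped between the ages in ISC as a list. Their geometric mean in ISC was 156, 155 and 343 CPM in Y1, Y2 and Y3 and 61.9, 199.5 and 106 CPM in O1, O3 and O5. O3 lay above Y1 and Y2. Of the 24 markers, 23 had a lower fitted value in aged ISC, with a median log2 fold change of -0.60, and summed levels were 5934 to 13262 CPM in young and 2988 to 8129 CPM in aged ISC. None of the markers was at 0. None was called, but the edgeR test called no gene of the table for age in ISC. The lactase gene *Lct* had -1.80 (SE 0.55) and the apolipoprotein gene *Apoa4* -1.97 (SE 0.67), whereas the maltase gene *Mgam* had 0.13.

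The levels of the 6 genes were also divided by the geometric mean of the enterocyte markers in the same library. This is a description only, since the genes were chosen for their fall in these ISC libraries and the markers were not. The difference of aged and young ISC means on this relative log2 scale was -2.13 for *Tmigd1*, -1.48 for *Susd2*, -1.46 for *Pdzk1*, -1.44 for *Stk10*, -1.29 for *Dnase1* and -0.90 for *Prss30*. The median was -1.45, where the marker list itself differed by -0.89 in ISC and by 0.36 in AE. With *Vil1*, *Sis* and *Apoc3* alone as the reference the difference was -2.11 for *Tmigd1* and -0.88 for *Prss30*. The part of enterocyte RNA in the ISC libraries in the difference of the 6 genes was not tested.

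**Figure D4:**
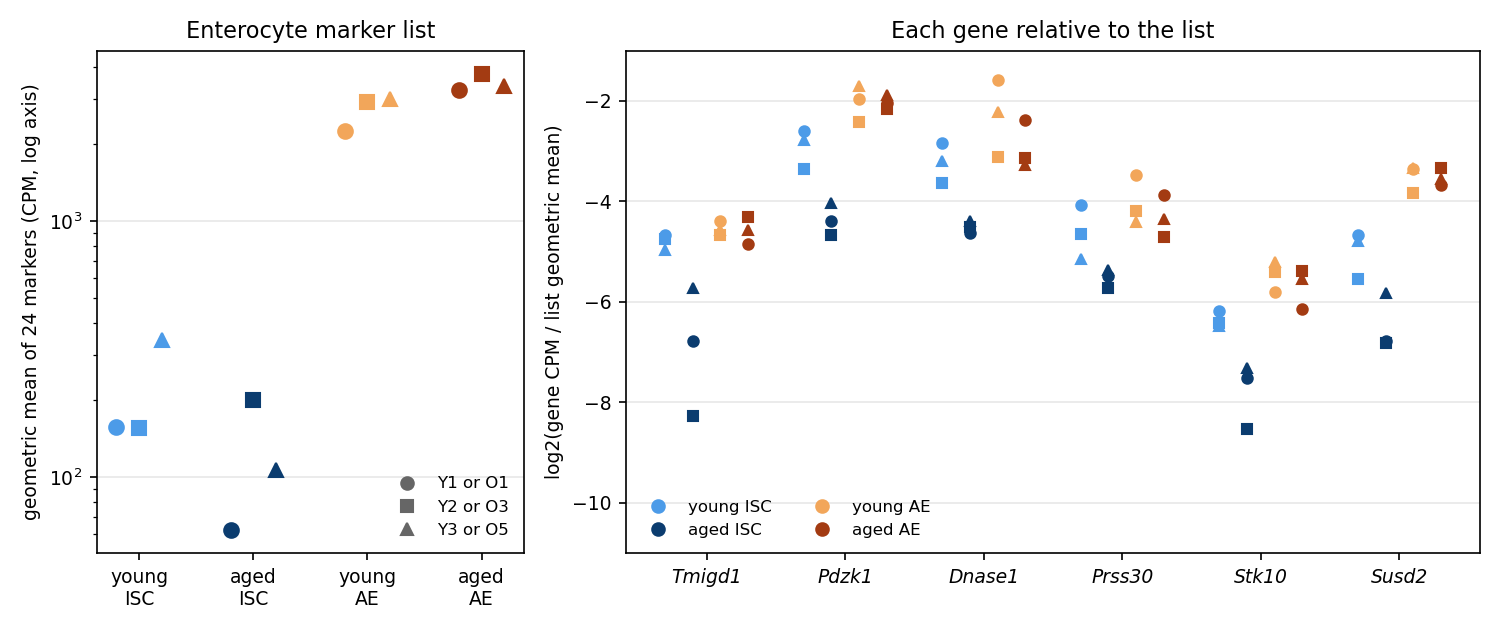
Left, geometric mean of 24 enterocyte markers in each library in CPM on a log axis, with symbols for the library codes. Right, log2 ratio of each gene to that mean by library, with the same symbols. Colours give the groups: light blue for young ISC, dark blue for aged ISC, orange for young AE and brown for aged AE. The genes were chosen for their fall in ISC, so that their ISC points are a description only.

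Markers of T cells and intraepithelial lymphocytes were lower in aged ISC as well. The sort of ISC used no antibody against CD45, whereas CD45-positive cells were excluded from AE. Of 13 such genes tested, 12 had a lower fitted value in aged ISC, with a median log2 fold change of -3.20, and 7 had aged libraries wholly below young ones, beside 4.41% of all genes tested. Their summed level was 11.3 to 27.7 CPM in young ISC and 3.51 to 5.45 CPM in aged ISC. The T cell receptor gene *Cd3e* had 3 to 10 reads in young ISC and 3, 0 and 0 reads in O1, O3 and O5. In AE the summed level was 21.3 to 65.4 CPM in young and 23.2 to 66.7 CPM in aged libraries. The 6 genes summed to 44.9 to 125 CPM in young ISC and to 1433 to 2212 CPM in young AE. Young ISC library Y1 was the highest in lymphocyte markers but Y3 in the 6 genes. The part of lymphocytes in the difference of the 6 genes was not tested.

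Other marker lists had medians nearer to 0 than that of the 6 genes in ISC. Stem cell markers had 5 of 14 lower values and a median of 0.05, and proliferation markers 10 of 18 with a median of -0.04. Goblet cell markers were lower in 5 of 10 with a median of 0.02. Paneth cell markers were lower in 6 of 8 with a median of -0.53, and the tuft cell markers in 10 of 10 with a median of -0.21. Enteroendocrine markers were lower in 2 of 12 with a median of 0.36. Of 11 myeloid markers 5 had enough counts to be tested, 2 of them lower, with *S100a8*, *S100a9* and *Mpo* at 0 in all ISC libraries. Few markers of B and plasma cells and of stroma and endothelium could be tested, 2 of 2 lower with a median of -1.07 and 2 of 4 lower with a median of -0.43.

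Among genes of villus position, the villus tip list stood nearest to the 6 genes. In aged ISC, 9 of its 10 genes had lower values, with a median of -1.10. The nucleoside transporter gene *Slc28a2* had -3.41 (SE 0.68), *Enpp3* -1.98 (SE 0.45) and the early response gene *Fos* 0.70 (SE 0.33). In AE the same list was higher in 9 of 10 genes with a median of 0.45, and 0 of 10 were called. Villus bottom genes were lower in ISC in 6 of 7 with a median of -0.44, led by the antimicrobial lectin gene *Reg3b* at -1.17 (SE 0.56).

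Along the length of the intestine, 7 of 8 ileal genes were lower in aged stem cells (median -0.65), and *Cubn*, the receptor of the intrinsic factor complex, had -2.33 (SE 0.86). In AE, 8 of 8 were higher with a median of 0.65 and 0 called, *Fgf15* at 2.57 (SE 1.40) and the ileal bile acid binding protein gene *Fabp6* at 1.35 (SE 0.54). All 9 proximal genes tested were lower in aged ISC, and their median was -0.30. The part of the segment of intestine in the difference of the 6 genes was not tested.

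The apical partners of *Pdzk1* differed widely. Transporters and receptors known to bind PDZ scaffolds were lower in 8 of 9 in aged ISC, and their median was -0.64. The peptide transporter gene *Slc15a1* had -1.53 (SE 0.38), and the lipoprotein receptor gene *Scarb1* had a mean of 7.92 CPM when young and 3.92 CPM when aged, whereas the chloride channel gene *Cftr* had 0.13 (SE 0.15). In AE the list was higher in 5 of 9 with a median of 0.08 and 0 called. The linker proteins and ezrin-type proteins were lower in ISC in 8 of 11 with a median of -0.39, *Pdzk1*, *Tmigd1* and *Stk10* themselves among them. *Slc9a3r1*, a PDZ scaffold of the same family, had -0.49 (SE 0.21) and *Ezr*, encoding ezrin, -0.39 (SE 0.15), both nearer to 0 than *Pdzk1*. *Msn*, encoding moesin, had a fitted value of -3.83 (SE 1.23) from few reads, with means of 0.256 CPM in young and 0.00935 CPM in aged ISC, the latter under the limit of detection. *Pdzd3*, a further PDZ scaffold, had 0.04 (SE 0.23).

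The microvillus genes, which build the actin core and the links between microvilli, were lower in ISC in 9 of 11 with a median of -0.40. Apart from *Tmigd1* they ran from -0.57 for the fimbrin gene *Pls1* (SE 0.22) to 0.14 for the adhesion scaffold gene *Ush1c* (SE 0.16). In AE 11 of 11 were higher with a median of 0.25 and 0 called. *Vil1*, encoding villin, went from 671 ± 89.1 CPM in young ISC to 505 ± 76.9 CPM in aged ISC (SD, n = 3).

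The families of *Dnase1*, *Stk10*, *Prss30* and *Susd2*, each counted with that member included, had medians nearer to 0 than that of the 6 genes. Of the DNase genes 3 of 6 tested had lower values in aged ISC, with a median of 0.03, and *Dnase1l1* had 0.23 (SE 0.20) and *Dnase2a* 0.19 (SE 0.26). Of the Ste20 germinal centre kinases 6 of 14 were lower with a median of 0.02, and *Slk*, the closest relative of *Stk10*, had 0.24 (SE 0.24). Per kilobase of exon, *Slk* stood at 12.9 CPM in young ISC against 0.505 CPM of *Stk10*, and at 10.3 CPM in aged AE against 13.5 CPM of *Stk10*. Trypsin-like proteases were lower in 5 of 11 with a median of 0.02. Among them the enteropeptidase gene *Tmprss15* averaged 0.652 CPM in young ISC and had 0 reads in all aged ISC libraries, and the matriptase gene *St14* had -0.11 (SE 0.13). Sushi domain genes were lower in 3 of 4 with a median of -0.25, and *Susd6* had -0.14 (SE 0.14).

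The transcription factors that set enterocyte identity were lower in ISC in 10 of 14 with a median of -0.06. *Hnf4a* had -0.16 (SE 0.15), *Hnf4g* -0.28 (SE 0.33), *Cdx2* 0.36 (SE 0.16) and *Creb3l3*, a regulator of lipid genes, -0.79 (SE 0.70). In AE the list was higher in 8 of 14 with a median of 0.03 and 0 called, with *Maf* at 0.70 (SE 0.17).

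**Figure D5:**
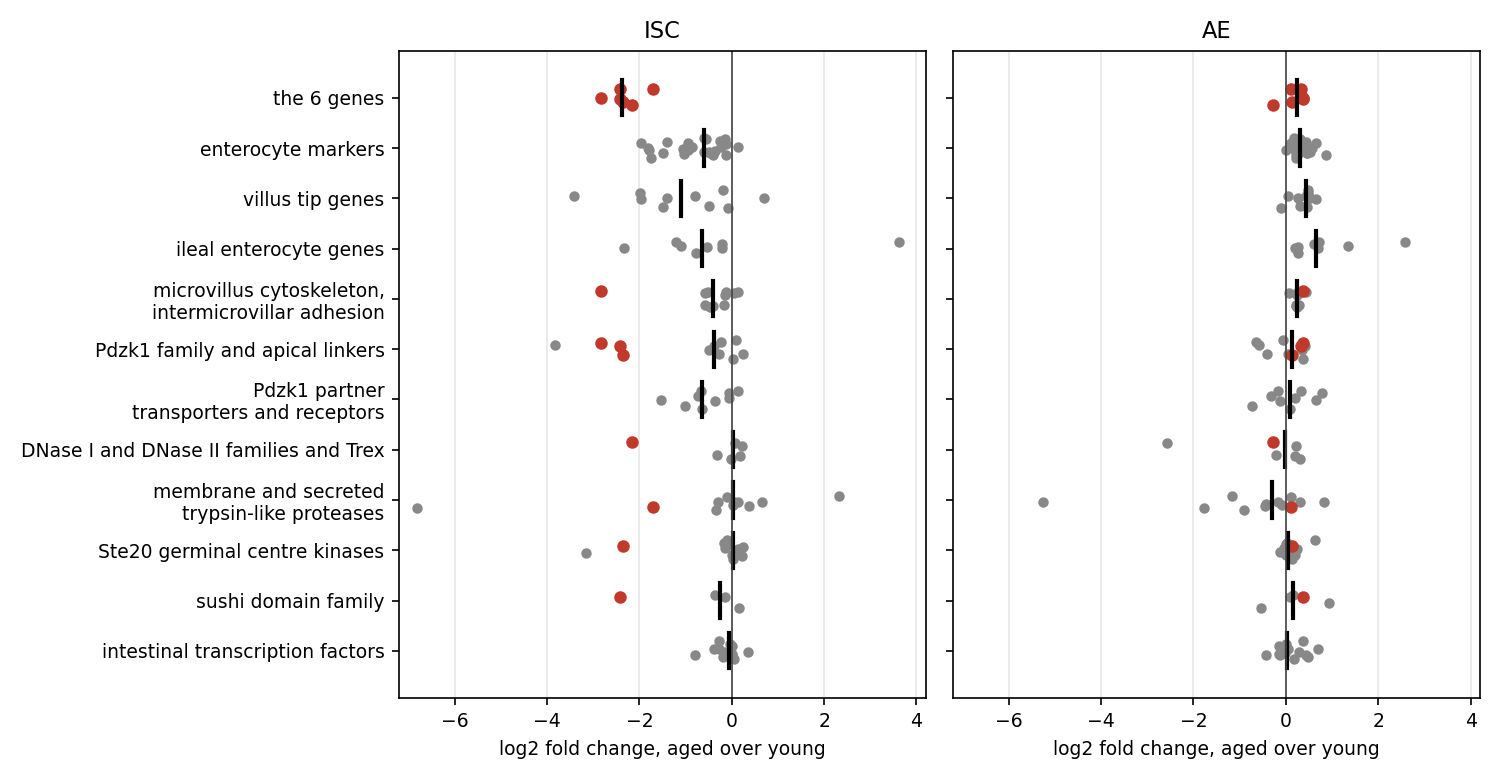
Log2 fold change of aged over young for the tested genes of 12 lists in ISC (left) and AE (right), with a grey point for each gene, red points for the 6 genes and black bars for list medians. In ISC the 6 genes lie at -2.83 to -1.71 with a median of -2.38, the enterocyte markers have a median of -0.60, and the DNase, protease and kinase families have medians of 0.02 to 0.03. The far left protease point in ISC is *Tmprss15*, which had 0 reads in aged ISC, so that its fitted value is no measure of size.

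Seen among all genes called higher in AE at both ages, 62.8% of 3857 had a lower fitted value in aged ISC, with a median log2 fold change of -0.06. The 6 genes held ranks between 17 and 85 from the lowest. Among the 632 whose excess in AE was at least 3 on the log2 scale at both ages, 81.2% were lower in the aged stem cells, their median being -0.57, and the 6 genes ranked between 17 and 78. These figures place the genes among others of the same kind and, like the choice itself, use the ISC libraries.

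The genes with the most similar profile were sought by Pearson correlation of log2(CPM + 1) with the mean standardised profile of the 6, among 12566 genes with a mean of at least 1 CPM. Over 12 libraries the first 10 included *Gda*, encoding guanine deaminase (r = 0.999), *Bst1*, an ectoenzyme gene (r = 0.998), and *Sema6a*, a semaphorin gene (r = 0.996). *Dpep1*, *Asah2*, *Apoc2*, *Slc46a3* and *Sulf2* were also among them, with *Gm44805*, which had nearly the same counts as *Apoc2* and is not distinct from it here. *Gda* averaged 99.5 CPM in young and 26.4 CPM in aged ISC (log2 fold change -1.91). The gap between AE and ISC enters all these coefficients, and they describe likeness of profile alone. The single nearest gene was *Enpp7* for *Tmigd1*, *Gda* for *Pdzk1*, *Eci3* for *Dnase1*, *Sulf2* for *Stk10* and *Bst1* for *Susd2*.

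Within the 6 ISC libraries the first 10 included *Oser1*, *Gda*, *Mxd1*, *Ocm*, *Clptm1l*, *Galnt1*, *Ldlrad3*, *Slc28a2* and *Slc15a1*, with coefficients from 0.979 to 0.997. *Gda* was in both lists. *Oser1*, the first, is not an enterocyte-type gene by level, with young means of 6.45 CPM in ISC and 7.63 CPM in AE, and its log2 fold change in ISC was -0.37. *Slc28a2* and *Slc15a1* had -3.41 and -1.53. By Spearman correlation 2 of the first 10 genes over 12 libraries and 3 of the first 10 over ISC remained.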

How the data were processed

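The authors trimmed adaptors from the reads with Trim Galore 0.4.4, mapped them to GRCm38 with HISAT2 2.1.0, and used SeqMonk to count the uniquely mapped reads on the merged exons of each gene. The deposited values used are these raw counts per gene. A deposited table of 49 genes holds log2 values that the authors made from counts scaled to the 75th percentile, and served as an alternative. Its columns of the authors' own test results were not used. Libraries were assigned to groups by column name, because 8 of 12 sample titles carry a code that contradicts the group they go on to name.

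Genes with at least 10 counts over the libraries compared were scaled by TMM and fitted with edgeR 4.0.16 (quasi-likelihood test, R 4.3.3, Benjamini-Hochberg adjustment, FDR threshold 0.05). DESeq2 1.42.0 was an alternative. CPM used TMM over all 12 libraries. Exon lengths came from GENCODE (GRCm38), cut to the span given in the count table. The scripts were tested on simulated data. The members and gene lists were chosen with earlier results of these data known. Named genes are the 6 members, the 10 most similar genes over 12 libraries and over ISC, the nearest gene to each member, and up to 4 genes of each list with the largest and smallest log2 fold changes. Other list genes were named for their role after their values were seen, and 1 gene that the rule names is not reported here. ISC and AE libraries that share a code deviated alike, with correlations of 0.232 to 0.459 in 6 of 6 pairs of ISC and AE against -0.444 to 0.166 in 12 pairs of different codes, so the code served as a replicate block for AE over ISC. No replicates agreed within sampling noise. Alternatives were other scalings, filters, a fit on 4 groups, leaving out each library and scaling to enterocyte markers.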

Additional observations from a re-analysis of the deposited data

How the results depend on the processing

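Of 330 alternative values for the 6 genes over the 4 comparisons, 303 kept their direction and moved by less than the spread between libraries or, in AE, stayed uncalled. In AE the median difference of 0.24 became -0.13 when libraries were scaled to the enterocyte markers, with -0.038 for *Tmigd1*, -0.28 for *Prss30*, -0.23 for *Stk10* and -0.015 for *Susd2*, since the markers were higher in aged AE. The deposited log2 values gave -0.037 for *Prss30*. Leaving out 1 library gave medians of 0.17 to 0.41 in AE, values of -0.077 to 0.26 for *Prss30* and -0.10 to 0.37 for *Stk10*, and 0 to 1 genes called in the table. DESeq2 called 17 genes there and no filter 2. The adjusted p of the 6 genes in AE ranged from 0.241 to 0.9997 over the alternatives fitted by edgeR's quasi-likelihood test or DESeq2. The deposited log2 values and the scaling to enterocyte markers gave no p-value.

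In ISC, leaving out 1 library gave medians of -2.64 to -1.80, scaling to the enterocyte markers -1.45, and leaving out both Y3 and O1 -1.44. For AE over ISC the medians without 1 library were 4.22 to 5.03 in young and 6.73 to 7.28 in aged mice. With the replicate block they were 4.61 and 7.03, and the block changed no call of the 6 genes. Upper-quartile scaling moved the median of all genes in AE over ISC of young mice from 0.15 to 0.03. Of the 10 most similar genes, Spearman correlation kept 2 over 12 libraries and 3 over ISC, and log2(CPM + 0.1) kept 6 over ISC. The fewest reads behind a value were the 10 to 15 of *Stk10* in each aged ISC library.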
